A study of Arabidopsis thaliana with 3 samples.

Results

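The genes that make cellulose for the primary wall were examined for RNA crosslinks in a pull-down of TSN1 (Tudor staphylococcal nuclease 1) from Arabidopsis thaliana. The set comprised 7 listed genes. These were the cellulose synthase genes CESA1 (AT4G32410), CESA2 (AT4G39350), CESA3 (AT5G05170), CESA5 (AT5G09870) and CESA6 (AT5G64740), the endoglucanase gene KOR1 (AT5G49720) and COB (AT5G60920). Members were matched by gene identifier in the authors' annotated list of binding sites, and a gene with no entry counted as 0 sites. Of the 7 genes, 5 were among the 1504 target genes, and they held 38 of the 5673 binding sites. CESA3 appears in the deposited tables under the symbol CEV1 and KOR1 under GH9A1.

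The assay was iCLIP2, in which ultraviolet light joins protein to RNA and the end of each complementary DNA marks the crosslinked base. There was 1 group of 3 biological replicates, each pooled from 3 plates of 14-day-old seedlings. The seedlings were grown with 16 h of light and 8 h of dark at 20 °C. They were irradiated with 2000 mJ/cm2 at 254 nm and harvested 10 h after lights on, mainly as aerial tissue. All plants carried GFP:TSN1 under the TSN1 promoter (pTSN1) in Col-0 with a wild-type background. There was no control sample, so specific crosslinks and pull-down background cannot be told apart. In the deposited lists the replicates are pooled. Values for a single replicate were not analysed here, read depth is unknown, and no spread between plants can be given. All comparisons below are therefore descriptions of pooled lists, and none carries a test. Intervals of shares are Wilson 95% intervals, and those of medians are 95% intervals from ranked values. Both cover counting error only and treat neighbouring sites or peaks as independent. A called peak is 1 nt long and a binding site 5 nt. The score of each is the authors' own value with no stated unit, so it ranks peaks and sites within these lists and is not a fold of crosslinking. Fewer cells that express a gene and less RNA per cell cannot be told apart in these seedlings, and RNA abundance was not measured.

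Cellulose is spun out at the plasma membrane by rosette complexes of CESA catalytic subunits. The complexes of growing cells contain CESA1, CESA3 and a subunit of the CESA6 type, a position that CESA2 and CESA5 can also fill, whereas CESA4, CESA7 and CESA8 form the complexes of secondary walls in xylem. KOR1 (KORRIGAN) is a membrane-bound endoglucanase that associates with the complex. COB (COBRA) is a cell-surface protein with a glycosylphosphatidylinositol anchor that is needed for oriented cellulose deposition. The messenger RNAs of all these proteins are translated at the endoplasmic reticulum.

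CESA1, CESA3, KOR1 and COB had 7 to 11 sites each, and the CESA6-type subunits had 0 to 2. Why the counts differ was not tested. KOR1 had 11 sites, CESA1 and COB 9 each, CESA3 7, CESA5 2, and CESA2 and CESA6 0. The annotation lists 27444 nuclear protein-coding genes, of which 5.04% had at least 1 site and 3.33% at least 2. All 5 members with a site had at least 2. Of the 1837 such genes with a called peak, 73.8% were targets. Among the members, 6 had a called peak (against 6.69% of all annotated nuclear protein-coding genes) and 5 of these 6 were targets, a share that lies near the background. Most member targets had more sites than the median target. At least 7 sites were found in 4 of the 5 member targets, against 16.7% of the 1403 protein-coding targets, whose median was 2 sites (quartiles 1 and 5). The cut of 7 equals the count of CESA3, so it may follow the member values and the contrast is only descriptive. By number of sites KOR1 ranked 58th of all targets, CESA1 and COB 105th and CESA3 178th, ties sharing the best rank. CESA5 ranked 677th with all other genes of 2 sites.

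Called peaks divided the members in nearly the same way, but they are not independent of the site counts, because the sites hold them. The exception was CESA6, which had no site but more called peaks than CESA5 and than the median gene with any. The spans held 166 called peaks in KOR1, 164 in CESA3, 143 in CESA1, 109 in COB, 26 in CESA6, 19 in CESA5 and 0 in CESA2, 627 in all. At least 100 were present in 4 members, against 7.51% of genes with a called peak, for which the median was 24 (quartiles 9 and 53). The cut of 100 falls between COB and CESA6, so it too may follow the member values. KOR1 and CESA3 ranked 23rd and 24th of the 1837 genes, CESA1 40th and COB 100th. Because the CESA genes are longer, the order changed per length of the gene span, introns included. KOR1 then had 53.9 called peaks per kb, COB 34.2, CESA3 30.2, CESA1 22.5, CESA6 4.56 and CESA5 3.43. Per kb of span KOR1 had 3.57 sites, COB 2.82, CESA1 1.42, CESA3 1.29 and CESA5 0.361. No value per kb over all genes is given here. How far the ranks by sites and by called peaks follow the length of the gene was not tested. Every called peak in the spans of the 5 member targets lay on the same strand as the sites of its gene, as did 63588 of the 63590 called peaks of all targets.

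**Figure D1:**
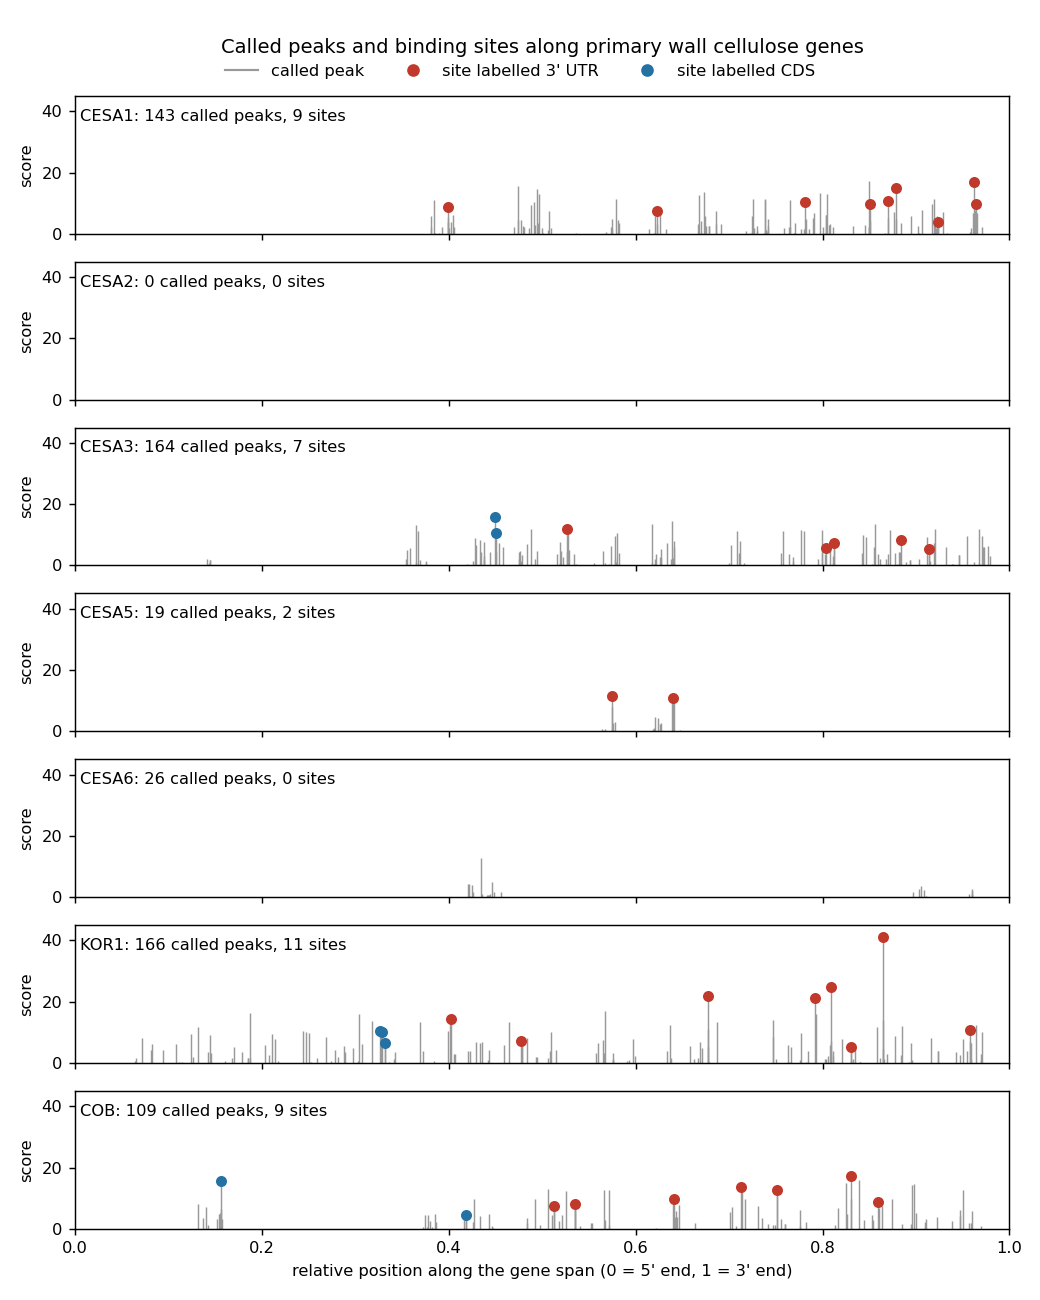
Called peaks (grey lines) and binding sites (dots, coloured by the authors' region label) of the 7 genes, with the score on the vertical axis and the relative position along the gene span (0 at the 5′ end, 1 at the 3′ end) on the horizontal axis. KOR1 has peaks from 0.0643 onwards, CESA1 from 0.381 onwards, CESA5 and CESA6 have short groups of peaks, and CESA2 has none. CESA6 is drawn in the direction of the strand that holds its peaks.

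CESA1, the subunit known from the temperature-sensitive mutant rsw1, had 9 sites on the minus strand of chromosome 4 between 15640716 and 15644309 (TAIR10). From the 5′ to the 3′ end their scores were 8.92, 7.46, 10.5, 9.89, 10.8, 15.0, 3.73, 16.8 and 9.85. Scores did not run in order along the gene, and 2 of the 9 exceeded the median of all sites, 12.5. The highest-scoring site, at 15640726 to 15640730, lay 10 nt (centre to centre) from the most 3′ site. Sites thinned out towards the 5′ end: 6 lay within 718 nt of the most 3′ one at gaps of up to 281 nt, and the outermost gaps were 1007 and 1423 nt. On a scale of relative position from 0 at the 5′ end of the gene span to 1 at its 3′ end, no called peak of CESA1 lay up to 0.25, and 114 of 143 (79.7%) lay above 0.5.

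CESA3, the partner subunit whose mutations give resistance to the herbicide isoxaben, had 7 sites on the minus strand of chromosome 5 between 1530600 and 1533119. Their scores were, in the same direction, 15.8, 10.7, 11.9, 5.68, 7.50, 8.24 and 5.43. The 3 sites of the 5′ part all scored higher than the 4 sites of the 3′ part, and an interval of 1501 nt between site centres separated the parts. That interval held 59 called peaks but no listed site. With 23.4 called peaks per site, CESA3 had the most per site of the members (CESA1 15.9, KOR1 15.1, COB 12.1, CESA5 9.50), where the median over targets with called peaks was 12 (quartiles 9 and 17). Only 12 of its 164 called peaks (7.32%, interval 4.23 to 12.4) fell inside a site.

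CESA5, a CESA6-type subunit known for its part in seed coat mucilage, had 2 sites on the plus strand of chromosome 5. The site at 3076057 to 3076061 scored 11.5 and the site at 3076416 to 3076420 scored 10.7, both below the median of all sites. All 19 called peaks lay in a pair of short groups around them, 6 peaks in 75 nt and 13 peaks in 162 nt. The rest of the gene held no called peak. The peak with the highest score, 11.6, was not inside a site but 5 nt from the edge of the second one.

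CESA6, whose loss in the procuste mutant shortens dark-grown hypocotyls, had more called peaks than CESA5 and no site. Its 26 called peaks were all on the plus strand of chromosome 5. They formed 3 groups when a gap over 200 nt opened a new one: 16 peaks from 25883429 to 25883631, 6 from 25886140 to 25886217 and 4 from 25886484 to 25886502. A single peak at 25883508 scored 12.6, higher than any peak of CESA5, and it alone of the 26 scored above 5. The next called peak lay 7 nt away, and why no site was listed there was not tested. The median score of the CESA6 peaks was 1.60, against 2.75 in CESA5 and 3.12 to 4.39 in the other members with sites. Among the 482 genes with a called peak and no site, the median was 7 called peaks, and 29 genes including CESA6 had at least 26. In 80 of these genes the highest peak scored at or above that of CESA6, so a single peak of this height without a site was not rare in the list.

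CESA2, the remaining CESA6-type subunit, had no called peak on either strand and no site. Why it was not listed was not tested. The CESA genes are related in sequence, and how reads that match several genes were handled is not given in the sources used here. Called peaks and sites are therefore uncertain between copies where those are alike, and how alike they are was not measured.

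KOR1 held the 4 highest site scores of the members, while its median of 10.9 was below the 11.1 of the 2 CESA5 sites. Its 11 sites lay on the minus strand of chromosome 5 between 20197518 and 20199465, and from the 5′ to the 3′ end they scored 10.3, 9.98, 6.61, 14.3, 7.30, 21.9, 21.3, 24.9, 5.14, 41.0 and 10.9. Scores above 20 were reached by 4 of the 11 KOR1 sites and by no other of the 38 member sites, against 23.4% of all sites in the series. The next highest member site, in COB, scored 17.3, so the cut of 20 may follow the member values. These 4 sites lay above relative position 0.5 and within 576 nt, and the highest, at 20197806 to 20197810, ranked 412th of 5673. Low-scoring sites lay among them, such as the one of 5.14. The median of the 11 sites, 10.9, was close to the median over protein-coding targets of their median site score, 10.5, and 664 targets had a higher one. Called peaks covered KOR1 most evenly, with 33, 46, 34 and 53 in successive steps of 0.25 of the span and no gap between neighbouring peaks above 184 nt.

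COB had 9 sites on the minus strand of chromosome 5 between 24511597 and 24513842. From the 5′ to the 3′ end they scored 15.6, 4.43, 7.58, 8.06, 9.57, 13.7, 12.7, 17.3 and 8.78. Of the 9 sites 4 exceeded the median of all sites, 3 of them in the 3′ part. The most 5′ site, at 24513838 to 24513842, was the only member site up to 0.25 of a gene span. It lay 834 nt from the next site, with a stretch of 684 nt between neighbouring called peaks that held none.

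Over the 38 member sites together, the median score was 10.4 (quartiles 7.70 and 14.2), against 12.3 (8.12 and 18.4) for the 5257 other sites in protein-coding genes. Above the median of all sites lay 12 of 38 member sites (31.6%), against 48.7% of the others. The CESA sites alone had a median of 10.2, with 3 of 18 above the median of all sites. Pooled sites give more weight to genes with many sites. Counted by gene, the contrast was smaller: the median of the members' median site scores was 9.89, against 10.5 over protein-coding targets.

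**Figure D2:**
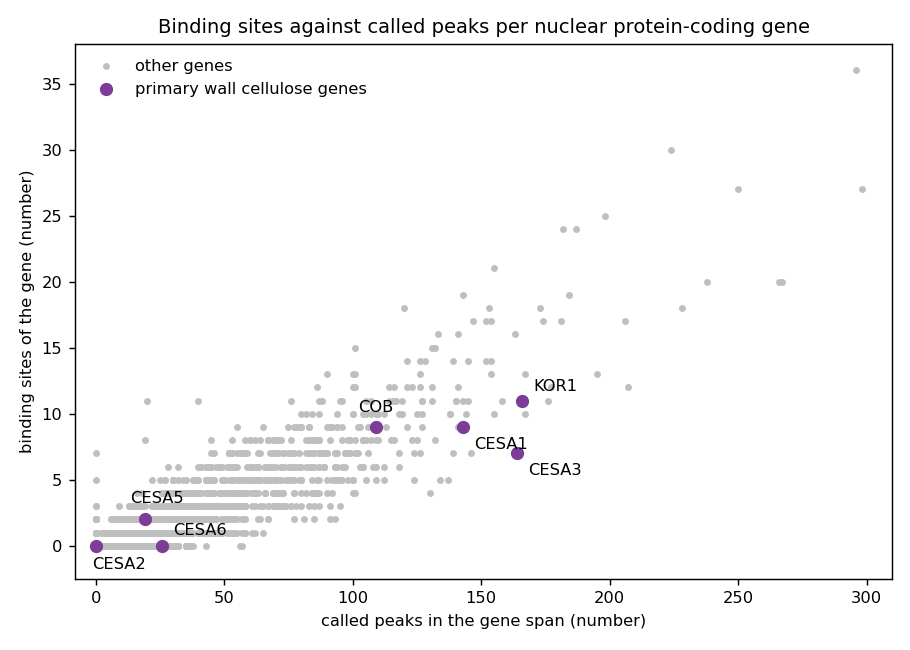
Number of binding sites against number of called peaks for each nuclear protein-coding gene with either, with the 7 members in purple. CESA3 (164 peaks, 7 sites) has 23.4 called peaks per site, and CESA6 (26 peaks) lies at 0 sites. Grey genes at 0 called peaks are targets to which no called peak was assigned. Peaks in overlapping gene spans or outside every span were assigned to no gene.

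The region labels of the authors placed 31 of the 38 sites (81.6%, Wilson 95% interval 66.6 to 90.8) in the 3′ untranslated region (3′ UTR) and 7 (18.4%, 9.22 to 33.4) in the coding sequence (CDS). Of the 5257 other sites in protein-coding genes, 66.9% had the 3′ UTR label and 29.6% the CDS label. Both of these shares lie inside the members' intervals. No member site was labelled intron or 5′ UTR, which allows a share of up to 9.18% by the same interval. CESA1 (9 of 9) and CESA5 (2 of 2) had the 3′ UTR label alone, as did 46.4% of protein-coding targets. CESA3 had 5 sites labelled 3′ UTR and 2 CDS, KOR1 8 and 3, and COB 7 and 2. In these 3 genes every CDS site lay upstream of every 3′ UTR site.

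The 3′ UTR label reached far into the members. It spread over 3594 nt in CESA1, 2104 nt in CESA3, 1716 nt in KOR1, 1111 nt in COB and 364 nt in CESA5. Among the 711 protein-coding genes with at least 2 sites so labelled, the median spread was 490 nt and 27.9% exceeded 1000 nt, as 4 of the 5 member targets did. The most 5′ CESA1 site, at 15644305 to 15644309 and relative position 0.399, had the 3′ UTR label. In CESA3 the label began at 0.527, in KOR1 at 0.402 and in COB at 0.513. With the label restricted to the last 500 nt before the most 3′ site that carries it, it covered 15 of 38 sites (39.5%, 25.6 to 55.3). No restricted share is given here for the other sites, so this value has no background beside it. No exon model was used, and whether the labels match the main transcript of each gene was not tested. Pooled over the members, the median score was 10.5 for the 31 sites labelled 3′ UTR and 10.3 for the 7 labelled CDS. The genes differed, so the pooled medians do not describe each gene. In CESA3 the CDS sites scored 15.8 and 10.7, and the 3′ UTR sites 5.43 to 11.9. In KOR1 the CDS sites scored 6.61 to 10.3, and the 3′ UTR sites 5.14 to 41.0. In COB the CDS sites scored 15.6 and 4.43, and the 3′ UTR sites 7.58 to 17.3.

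**Figure D3:**
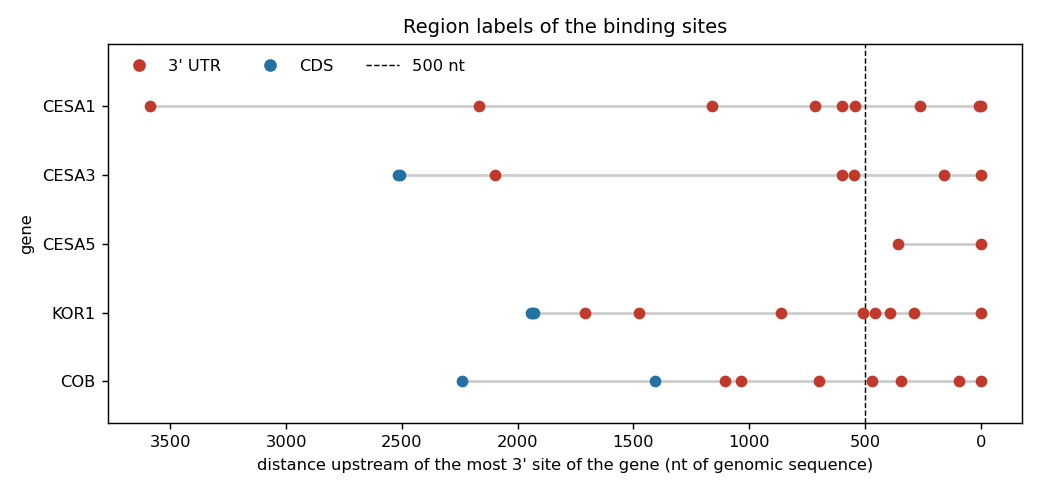
Each dot is a binding site, coloured by the authors' region label and placed by its distance in nt upstream of the most 3′ site of its gene. The red 3′ UTR label extends to 3589 nt in CESA1, and the dashed line marks 500 nt.

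Position along the gene was also described without the labels. The median relative position of the member sites was 0.732, against 0.631 for 5200 nuclear sites in protein-coding genes. With each member counted once, the mean of the members' mean positions was 0.665, nearer to that background. By gene the median was 0.870 in CESA1, 0.803 in CESA3, 0.677 in KOR1, 0.641 in COB and 0.607 in CESA5. Above 0.5 lay 28 of 38 member sites (73.7%, against 62.5% of all), and up to 0.25 lay 1 (2.63%, against 14.1%). Called peaks followed the same course, with 420 of the 601 peaks of member targets (69.9%) above 0.5 and 49 (8.15%) up to 0.25, against 57.8% and 16.7% of the 63590 called peaks of all targets. The members differed among themselves. Up to 0.25 lay 0 of 143 called peaks in CESA1, 6 of 164 in CESA3 and 0 of 19 in CESA5, but 10 of 109 in COB and 33 of 166 in KOR1. The KOR1 peaks divided almost evenly, with 87 of 166 (52.4%) above 0.5. Introns are part of the span, and the coverage of transcripts along the gene was not measured.

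Neighbouring sites of a member lay a median of 233 nt apart over 33 pairs, against 160 nt over all protein-coding targets. Gaps of at most 10 nt numbered 4 of 33 (12.1%, against 10.6%). These were the pair at the 3′ end of CESA1, the pair of CDS sites in CESA3 at 1533110 to 1533119 and the run of 3 CDS sites in KOR1 at 20199446 to 20199465. Gaps over 1000 nt numbered 3 of 33 (9.09%, against 4.21%), of which 2 were in CESA1 and 1 in CESA3. A member site held 1 called peak in 5 cases, 2 in 26 and 3 in 7.

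Most of the called peaks in the members lay outside sites, including many of high score. Inside a site lay 78 of 627 called peaks (12.4%, Wilson 95% interval 10.1 to 15.3), against 16.3% of 68222 called peaks in single protein-coding genes. The share was 16.5% in COB, 15.1% in KOR1, 12.6% in CESA1 and 26.3% in CESA5, where it rested on 5 of 19 peaks. Peaks inside sites had a median score of 7.48 and those outside 2.97, close to the 8.13 and 3.01 of all such peaks. A site takes the score of its highest peak, and how sites were chosen among called peaks is not stated. The higher scores inside sites may thus be built into the lists and are not an independent result. Of the 45 member peaks that scored above the median of all sites, 31 (68.9%) lay outside a site, against 56.7% of the 7766 such peaks in all. CESA1 had 8 of these, KOR1 9, COB 8, CESA3 5 and CESA6 1. The highest peak of CESA1, at 15641446 with a score of 17.2, lay 8 nt from the edge of the nearest site and outscored every CESA1 site. No other called peak stood within 2 nt of 19 of the 31 (61.3%, against 67.2% of 4407 in all). Inside sites this held for 1 of 14 peaks of that height (7.14%, against 11.5% of 3359). Why the 31 peaks had no site was not tested, and the choice of sites may itself fix this contrast.

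**Figure D4:**
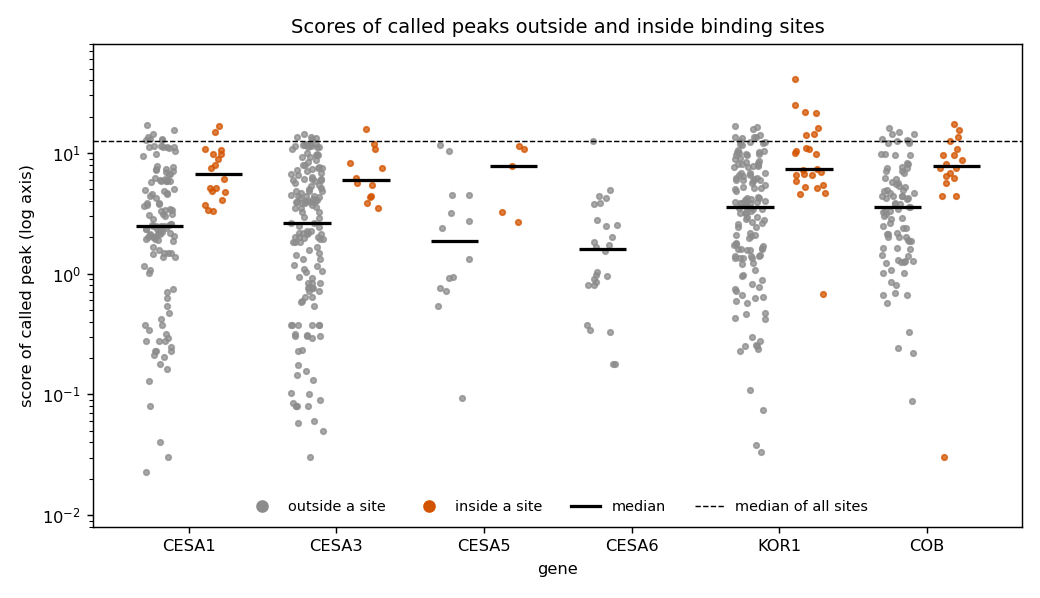
Scores of called peaks on a log axis for the 6 members with any, outside sites in grey and inside sites in orange, with black bars at the medians and a dashed line at the median score of all sites, 12.5. Medians are higher inside sites in the 5 members that have sites, which the choice of sites may build in, and the ranges overlap in each.

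Other genes of cellulose synthesis were taken from a list of 38, grouped by role. Of these, 2 had sites and 36 had no called peak, which is close to the background of 5.04% of annotated nuclear protein-coding genes with a site and 6.69% with a called peak, so nothing is read from these counts. The genes without a called peak were the secondary wall subunits CESA4, CESA7 and CESA8, the related CESA9 and CESA10, 2 KOR1 relatives, 10 COBRA-like genes, 6 genes of UDP-glucose supply (the sucrose synthases SUS1 to SUS4 and the pyrophosphorylases UGP1 and UGP2), 3 CSLD genes for cellulose synthase-like proteins and 10 of 12 further partners and factors. Of the last group, CTL1 (AT1G05850, symbol POM1), a chitinase-like protein needed for normal cellulose assembly, had 11 sites, as many as KOR1, on chromosome 1 between 1766661 and 1767921. Its scores ranged from 12.4 to 46.2 with a median of 33.0, 10 of 11 sites exceeded the median of all sites, and 10 had the 3′ UTR label. AT1G45688, which the files do not name, had 30 called peaks and 2 sites, which scored 4.94 and 5.43. The scaffold gene CSI1, which links the complex to microtubules, was among those without a called peak.

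The tissue was checked with markers. All 5 genes of green aerial tissue (RBCS1A, RCA, CAB1, GAPB and CA1) had sites. Of 8 root markers 1, PYK10, was a target with 18 sites and the other 7 had no called peak. With 6.69% of annotated nuclear protein-coding genes having a called peak, the absence of peaks from so short a list says little about the tissue.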

How the data were processed

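The files hold lists of the whole series. Per the file headers, the deposited score of a binding site is the maximum of matched scores. The deposited count of sites per target equalled the listed sites in all 7 members. Per the submitters' processing notes, the tools were STAR 2.7.3a, UMI-tools 1.0, FastQC 0.11.5, bedtools 2.27.1 and SAMtools, with TAIR10 as the build. The peak caller, the site settings and how replicates were merged are not stated there. Libraries had 18 PCR cycles and 50-nt single-end reads, per the labels' protocols.

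Called peaks were assigned to a gene where exactly 1 protein-coding span of a TAIR10.1 gene table held them. That table gave spans and names only, and 5200 of 5208 nuclear site centres were inside the named gene's span. No genome or protein sequence was used. Overlap functions were tested on simulated peaks. Python 3.11.15, pandas 2.3.3, NumPy 2.4.6 and SciPy 1.17.1 were used. Members and lists were chosen with earlier results of these data known. Named genes were all members, every gene of the cellulose list with a site or called peak, and tissue markers; the list genes without a called peak that are named, such as CSI1, were named after their values were seen. Alternatives covered score thresholds, gene weighting, label reach, site width and dominant genes. No test was run.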

Additional observations from a re-analysis of the deposited data

How the results depend on the processing

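Of 21 alternatives, 16 stayed close to the reported value (counts within 1.5 times, shares and medians within the 95% interval) and 5 did not. For medians the interval ran from 8.78 to 11.9 for site score and from 0.535 to 0.830 for relative position. The second is a loose limit, as it also includes the 0.631 of all nuclear sites in protein-coding genes. The interval of the 3′ UTR share is loose too, as it includes the 66.9% of the other sites in protein-coding genes. With only sites above the median score of all sites, the members kept 12 of 38 sites. With only called peaks above the median score of all called peaks, 304 of 627 were left and the share inside a site was 23.0% in place of 12.4%. Counting called peaks within 5 nt of a site edge raised that share to 17.5%. Restricting the 3′ UTR label to 500 nt lowered its share from 81.6% to 39.5%. Without KOR1, the gene with the most sites and called peaks, the median site score was 9.89, the 3′ UTR share 85.2% and the share of called peaks inside a site 11.5%. Removing KOR1 from the count of called peaks was added after seeing the data and left 461. No paired analysis was possible because there is 1 group and the lists pool its replicates, so no replicate could be left out either. Read depth, RNA abundance and a control were not analysed here, so absence of a site cannot be read as absence of binding.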

Other observations

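The authors' site identifiers are numbered in order along each strand up to 7020, and 1347 numbers (19.2%) are not in the list used here. Within the members 8 of 46 numbers between the first and last site of a gene were absent (17.4%): 3 in CESA1, 3 in CESA3, 2 in KOR1 and none in COB or CESA5. They fell in 7 intervals between neighbouring sites of 212 to 1496 nt. Each of the 7 intervals held a called peak above the median score of all sites, with highest peaks of 13.2 to 17.2. Of the 26 member intervals with no absent number, which were shorter (median 137 nt), 6 held such a peak. The interval of CESA3 that separates its 5′ and 3′ sites had 2 absent numbers and a peak of 14.5 at 1532090. The cause of the absent numbers was not tested.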
